A study of Mus musculus with 12 samples.

Results

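Chemokine ligands are small secreted proteins that draw leukocytes along concentration gradients. The 7 ligands Ccl2, Ccl3, Ccl4, Ccl5, Cxcl1, Cxcl2 and Cxcl10 were taken by gene symbol from a table of 52632 mouse genes and followed across 12 RNA-seq libraries of sorted mouse kidney CD4 T cells. The libraries came from 3 samples in each of 4 groups. KO IRI cells came from mice labelled CD4 Keap1 KO on a C57BL6/J background after ischemia reperfusion injury (IRI), in which the vessels of both kidneys were clamped for 30 min and the kidneys were taken after 24 h. KO control cells came from mice of the same genotype that served as controls. WT IRI cells came from purchased C57BL6/J mice after the same injury, and WT control cells from purchased C57BL6/J mice that served as controls. The KO mice were made in house, so genotype goes together with where the animals came from. The labels do not say how Keap1 was deleted, whether controls had sham surgery, how old the mice were, or that the replicates are separate animals. P-values therefore reflect the spread between these samples, which may be technical.

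Each chemokine binds 1 or more G protein coupled receptors on the cells it attracts, and the named ligands divide by receptor. Cxcl1 and Cxcl2 act through Cxcr2 and recruit neutrophils, Ccl2 acts through Ccr2 and recruits monocytes, Ccl3, Ccl4 and Ccl5 attract monocytes and effector T cells, Ccl3 and Ccl5 in part through Ccr1, and Cxcl10 acts through Cxcr3 on activated T cells. In an ischemic kidney these ligands are known from tubular cells, macrophages and endothelium, while T cells are known mainly as a source of Ccl3, Ccl4 and Ccl5. Keap1, the gene the KO is named for, encodes the adaptor that marks the transcription factor NRF2 for degradation.

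In the mouse build GRCm38, Cxcl1, Cxcl2 and Cxcl10 lie on chromosome 5, with 10755 bases between Cxcl1 (chr5:90891241-90893115, plus strand) and Cxcl2 (chr5:90903871-90905938, plus strand). Ccl2, Ccl3, Ccl4 and Ccl5 lie on chromosome 11, with 13228 bases between Ccl3 and Ccl4, which are read in opposite directions, and 117325 bases between Ccl5 and Ccl3. All 7 are protein-coding. Ccl2 (chr11:82035571-82037453, plus strand) overlaps Gm17268 and Cxcl10 (chr5:92346638-92348889, minus strand) overlaps Art3, in both cases on the opposite strand. The strand setting of the deposited quantification is not given in the sources used here, so reads of these 2 pairs may not have been told apart.

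The promoters of 4 of the 7 ligands were in the RefSeq table used. The 3 shown here belong to the neighbouring pair that differed in level and to Cxcl10, whose KO IRI values all lay above its WT IRI values. Each is the stretch from 250 to 51 bases before the annotated start, 5′ to 3′ on the gene's own strand (RefSeq, GRCm38.p6). Capitals mark matches on either strand to GGGANNNNCC, which resembles the binding site of NF-kB, and to GAAANNGAAA, which resembles the interferon stimulated response element.
Cxcl2 (chr5:90903649-90903848, plus strand): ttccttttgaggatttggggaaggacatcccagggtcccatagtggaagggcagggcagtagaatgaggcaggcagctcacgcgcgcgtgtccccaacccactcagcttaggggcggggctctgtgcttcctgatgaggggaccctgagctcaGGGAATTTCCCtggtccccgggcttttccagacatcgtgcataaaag
Cxcl1 (chr5:90890995-90891194, plus strand): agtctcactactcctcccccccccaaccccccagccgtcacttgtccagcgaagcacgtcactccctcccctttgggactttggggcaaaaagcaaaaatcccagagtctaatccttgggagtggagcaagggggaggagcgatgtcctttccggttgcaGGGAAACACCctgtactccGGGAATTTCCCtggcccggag
Cxcl10 (chr5:92348940-92349139, minus strand): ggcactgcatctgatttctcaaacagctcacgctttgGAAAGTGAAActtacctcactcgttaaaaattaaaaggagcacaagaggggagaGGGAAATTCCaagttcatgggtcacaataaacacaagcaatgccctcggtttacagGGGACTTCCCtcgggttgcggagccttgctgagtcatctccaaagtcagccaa

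Cxcl1 and Cxcl2 shared the run GGGAATTTCCCTGG, which begins 71 bases before the start of Cxcl1 and 97 bases before the start of Cxcl2. In both it holds 2 overlapping matches to the NF-kB letters, 1 on each strand. The Cxcl10 window held GAAAGTGAAA from 213 bases before its start and matches to the NF-kB letters from 159 and 103 bases before it. The Ccl3 window held no match to either motif. Among the 32851 promoters of the table, 13.8% of windows of this length held the NF-kB letters and 2.4% the interferon letters. These matches describe letters and say nothing of binding in these cells.

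T cell identity was checked first. Cd4 lay between 149 and 382 FPKM in the 6 KO libraries and between 49.7 and 100.5 FPKM in the 6 WT libraries, and Cd3e between 170.6 and 324 FPKM in KO and between 73.8 and 213 FPKM in WT. FPKM, the unit of the deposited table, is a fragment count scaled for transcript length and library size. Keap1 itself was 4.59 to 7.77 FPKM in KO and 6.03 to 9.87 FPKM in WT, so the genotypes overlapped, and a deletion of part of the gene need not show in a value over the whole gene. Nqo1, a target of NRF2, was 3.38 to 7.75 FPKM in KO and 0 to 0.543 FPKM in WT, with no overlap. The summed FPKM ran from 739969 to 2089550 over the libraries. It was lowest in WT IRI 3 and WT control 3, and KO control 1 needed the largest factor (1.34) when libraries were rescaled by median ratios. Of the 7 ligands, 6 reached the mean of 1 FPKM over the 12 libraries that was set for testing, as did 19288 genes in all. Cxcl1, at a mean of 0.92 FPKM, did not, and Ccl2, at 3.15 FPKM, was the nearest that did.

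Ccl5 was the most abundant of the 7, with a mean of 88.5 FPKM over all libraries, followed by Ccl3 at 22.7, Cxcl2 at 16.3, Ccl4 at 12.5, Cxcl10 at 4.37, Ccl2 at 3.15 and Cxcl1 at 0.92 FPKM. The order differed between groups: Cxcl2 averaged above Ccl3 in both IRI groups (28.6 against 20.1 FPKM in KO IRI, 29.3 against 18.4 FPKM in WT IRI), and below Cxcl10 in both control groups (4.93 against 5.41 FPKM in KO control, 2.38 against 6.39 FPKM in WT control). None of the 7 was listed at 0 in any library. In WT control cells 0.811% of protein-coding genes had a higher mean than Ccl5, while 44.1% lay above Cxcl2 and 51.5% above Cxcl1. In WT IRI cells 4.06% lay above Ccl5 and 7.21% above Cxcl2. The 7 ligands made up 51.2% to 73.4% of the summed FPKM of 38 chemokine ligand genes in a library. The widest range between libraries was that of Cxcl2, whose highest value was 66.1 times its lowest. In bulk libraries of this kind, fewer cells of a type and less RNA per cell cannot be told apart.

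**Figure D1:**
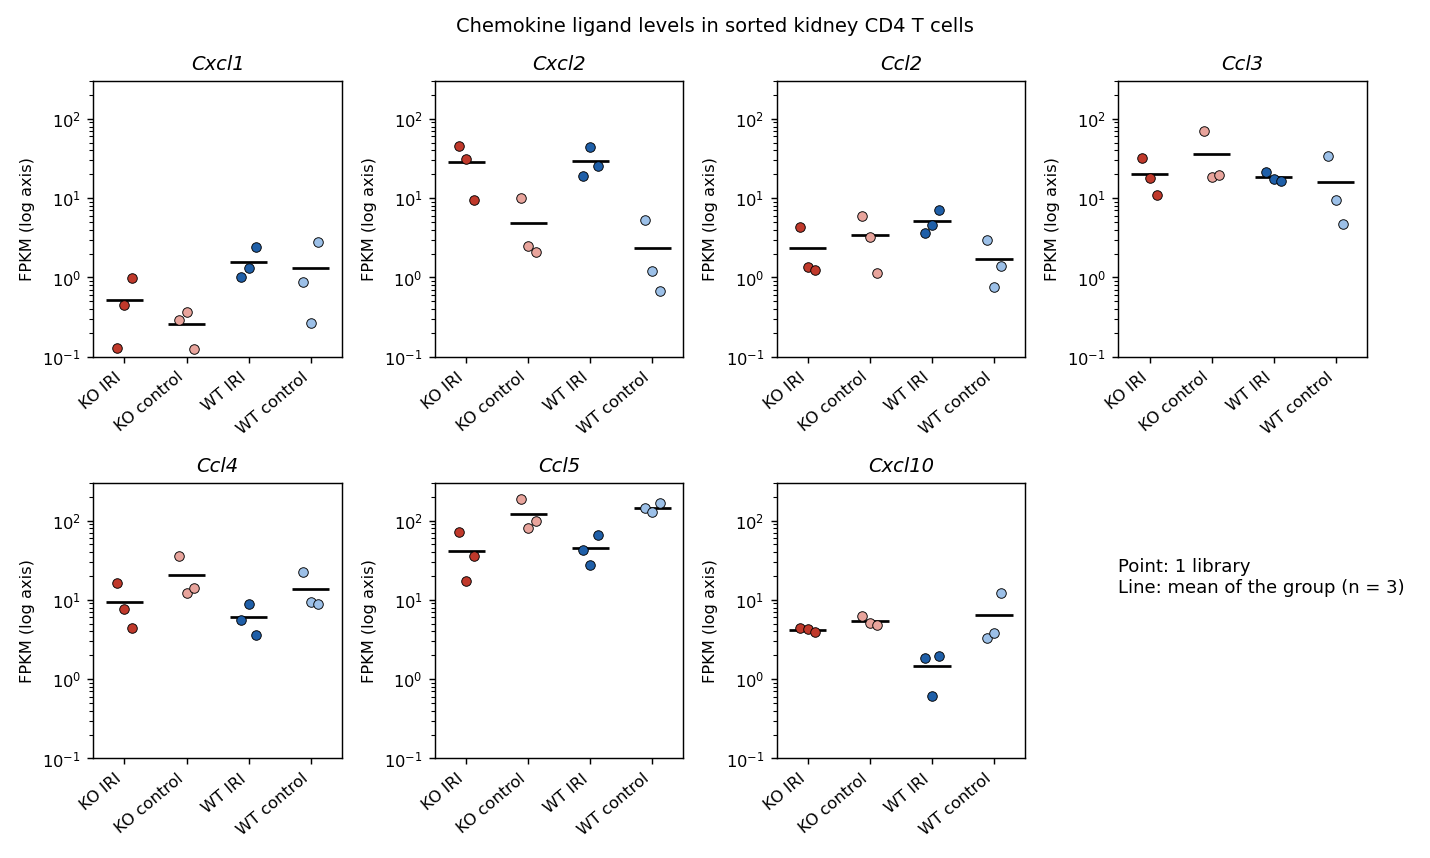
FPKM of the 7 chemokine ligands (log axis) in each of the 12 libraries, by group. Points are libraries and lines are group means (n = 3). Cxcl2 is high in both IRI groups, Ccl5 is high in both control groups, and Cxcl10 is low in the 3 WT IRI libraries.

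After IRI 2 of the ligands passed the test, and they moved in opposite directions. Averaged over the genotypes, Cxcl2 rose by a log2 difference of 2.83 ± 0.48 (SE, 6 IRI against 6 control libraries, adjusted p = 0.00542) and Ccl5 fell by 1.70 ± 0.35 (adjusted p = 0.0131), by limma with Benjamini-Hochberg adjustment over the 19288 genes tested. Differences of this kind are on the log2(FPKM + 1) scale, on which changes at low levels appear smaller than they are, and the threshold was an adjusted p of 0.05. So 1 of 6 tested ligands was higher and 1 of 6 lower after IRI, where 3.01% of all tested genes were higher and 6.03% lower. The median difference was -0.45 over the 6 ligands and 0.00 over all tested genes. The single-genotype comparisons share their libraries with this average and are given beside it, not as separate evidence.

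Cxcl2, a neutrophil attractant of the Cxcr2 group, had 44.9, 31.5 and 9.53 FPKM in the KO IRI libraries, against 10.2, 2.52 and 2.08 FPKM in the KO control libraries. It had 19.2, 43.8 and 25.1 FPKM in the WT IRI libraries, against 5.27, 1.20 and 0.679 FPKM in the WT control libraries. In WT every IRI library lay above every control library, as for 9.28% of tested genes. In KO the groups overlapped as deposited, because KO IRI 3 lay just under KO control 1. The other KO IRI libraries stood well above all KO controls. Rescaling by median ratios divides KO control 1 by 1.34 and KO IRI 3 by 1.09, which puts KO IRI 3 above it and ends the overlap. The mean was 28.6 ± 17.9 FPKM in KO IRI and 4.93 ± 4.56 FPKM in KO control (SD, n = 3 each), 5.81 times as high. In WT it was 29.3 ± 12.8 FPKM after IRI and 2.38 ± 2.52 FPKM in controls (SD, n = 3 each), 12.3 times as high.

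In WT alone the rise of Cxcl2 passed the threshold, with a log2 difference of 3.33 ± 0.69 (SE, n = 3 per group, limma adjusted p = 0.0259). It was the only 1 of the 6 tested ligands to pass there, in a comparison in which 1.19% of tested genes were called higher and 2.59% lower. This call in WT depended on single libraries. It ended when WT IRI 1, WT IRI 2, WT IRI 3, WT control 2 or WT control 3 was left out, with adjusted p up to 0.112 and differences from 2.95 to 3.90 over all 12 omissions. It also ended when genes of low level were not filtered out (0.0657), when the fit held only the 2 WT groups (0.0679) and when KO control 1, WT IRI 3 and WT control 3 were left out together (0.139). In KO the difference was 2.34 ± 0.69 (SE, n = 3 per group, adjusted p = 0.151) and did not pass. By limma 0 of 6 ligands passed in KO (2 at an unadjusted p under 0.05), where 0.866% of tested genes were called. The difference averaged over genotype stayed past the threshold in all 22 alternatives run, with adjusted p between 0.000864 and 0.0318.

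Some markers of other cells were also higher after IRI, in step with Cxcl2 between some libraries and not between others. Of 13 neutrophil markers, 10 were tested. Averaged over genotype, 6 were higher (S100a8, S100a9, Mmp8, Retnlg, Lcn2 and Acod1) and 1 lower (Mmp9) after IRI. Of all tested genes 3.01% were higher and 6.03% lower there. S100a8 and Lcn2 reached the mean of 1 FPKM set for testing only through the IRI groups, so this count is given only as a description. None of the 13 was listed at 0 in 6 or more libraries. Their summed level was 46.6 to 51.6 FPKM in KO IRI, 13.1 to 17.4 in KO control, 29.3 to 136 in WT IRI and 20.5 to 27.8 FPKM in WT control. Without Lcn2, left out after the values were seen, the sums of the other 12 were 42.7, 18.8 and 6.77 FPKM in KO IRI against 17.4, 15.5 and 13.1 FPKM in KO control, and 44.55, 50.1 and 25.0 FPKM in WT IRI against 20.2, 25.8 and 26.1 FPKM in WT control. IRI and control then overlapped in both genotypes as deposited. Within KO IRI these sums had the same order as Cxcl2. Within WT IRI the highest sum and the highest Cxcl2 were both in WT IRI 2, and the other libraries were not in the same order. S100a8, a calcium-binding protein abundant in neutrophils, had 13.3, 3.45 and 1.36 FPKM in KO IRI against 1.60, 0.115 and 0 FPKM in KO control, and 13.8, 9.69 and 7.37 FPKM in WT IRI against 0, 0.938 and 0 FPKM in WT control. In WT the IRI libraries lay above the controls for S100a8, as for 9.28% of tested genes, and in KO they overlapped as deposited. Lcn2, made by neutrophils and by injured tubules, stands in both lists, with 8.84, 32.8 and 39.9 FPKM in KO IRI against 0, 0.912 and 0 FPKM in KO control, and 84.1, 86.0 and 4.29 FPKM in WT IRI against 0.351, 0.877 and 1.67 FPKM in WT control. Of the injured tubule markers 7 of 10 were tested. Averaged over genotype 2 were higher, Lcn2 among them, beside 3.01% of all tested genes. Their summed levels were 23.6, 354 and 398 FPKM in KO IRI against 2.96 to 12.0 in KO control. In WT IRI they were 351, 341 and 50.8 FPKM against 6.97 to 17.4 in WT control. KO IRI 1, with the highest Cxcl2 of the 12 libraries, had the lowest of these sums among the IRI libraries. Without Lcn2 the injured tubule sums were 14.8 to 358.5 FPKM in KO IRI against 2.96 to 11.04 in KO control and 46.5 to 267 FPKM in WT IRI against 6.10 to 15.7 in WT control, with no overlap within a genotype. A CD4 T cell sort is meant to remove both kinds of cell. Their part in the rise of Cxcl2 was not tested.

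**Figure D2:**
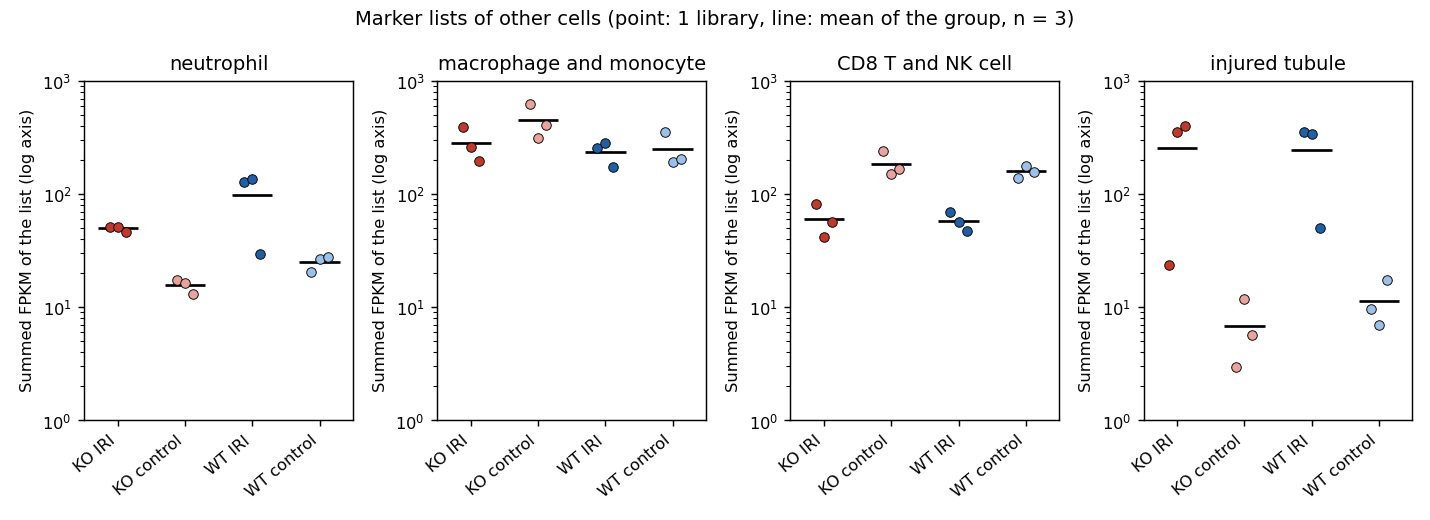
Summed FPKM (log axis) of 4 marker lists in each library, by group. Points are libraries and lines are group means (n = 3). The injured tubule list is higher in every IRI library than in every control library, the CD8 T and NK cell list is lower, and the macrophage and monocyte list overlaps in both genotypes.

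Cxcl1, the neighbour and close relative of Cxcl2, stayed low in every group. It had 0.129, 0.454 and 0.986 FPKM in KO IRI, against 0.288, 0.370 and 0.125 FPKM in KO control. It had 1.01, 1.30 and 2.45 FPKM in WT IRI, against 0.868, 0.268 and 2.79 FPKM in WT control. IRI and control overlapped in both genotypes. After injury all 3 KO libraries lay below all 3 WT libraries, as for 7.49% of tested genes, and the control groups overlapped. In a fit without the filter on low values, over 47501 genes, its IRI difference averaged over genotype was 0.26 ± 0.28 (SE, adjusted p = 0.688) and its KO minus WT difference was -0.74 ± 0.28 (SE, adjusted p = 0.173). Neither passed.

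Ccl2, the monocyte attractant, had 4.35, 1.37 and 1.26 FPKM in KO IRI, against 5.97, 3.26 and 1.13 FPKM in KO control. It had 3.60, 4.64 and 7.13 FPKM in WT IRI, against 2.93, 0.750 and 1.39 FPKM in WT control. In WT every IRI library lay above every control library, as for 9.28% of tested genes, and in KO the groups overlapped widely. The log2 difference was -0.38 ± 0.49 in KO (SE, n = 3 per group, adjusted p = 0.762) and 1.23 ± 0.49 in WT (adjusted p = 0.215), and neither passed. The response in KO minus the response in WT was -1.61 ± 0.70 (SE, unadjusted p = 0.0418, adjusted p = 0.9995), so the responses of the genotypes were not shown to differ.

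Ccl5, which attracts effector T cells and is a known product of CD8 T, NK and memory T cells, had 70.9, 17.2 and 35.6 FPKM in KO IRI, against 186, 79.5 and 99.8 FPKM in KO control. It had 42.7, 27.3 and 65.7 FPKM in WT IRI, against 144, 127 and 165 FPKM in WT control. In each genotype every IRI library lay below every control library, as for 9.15% of tested genes in KO and 14.4% in WT. The mean was 41.2 ± 27.3 FPKM in KO IRI and 121.9 ± 56.8 in KO control (SD, n = 3 each), 0.338 times as high. It was 45.2 ± 19.4 FPKM in WT IRI and 145.6 ± 19.0 in WT control (SD, n = 3 each), 0.311 times as high. Within a genotype the log2 difference was -1.66 ± 0.49 in KO (SE, n = 3 per group, limma adjusted p = 0.152) and -1.74 ± 0.49 in WT (adjusted p = 0.0817), and neither passed. The fall averaged over genotype passed in 21 of 22 alternatives. It was lost when KO control 1, WT IRI 3 and WT control 3 were left out together (adjusted p = 0.0645).

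Markers of CD8 T and NK cells, and of several other cell types, were also lower after IRI. Of 13 CD8 T and NK cell markers, 11 were tested and 7 were lower after IRI averaged over genotype. Of all tested genes 3.01% were higher and 6.03% lower there, and these shares stand beside all counts in this paragraph. None of the 13 was listed at 0 in 6 or more libraries. Their summed level was 42.2 to 81.5 FPKM in KO IRI, 150.3 to 242 in KO control, 47.2 to 70.2 in WT IRI and 140.4 to 179 FPKM in WT control. Nkg7, a granule membrane protein of cytotoxic cells, had 19.1, 8.88 and 14.3 FPKM in KO IRI against 84.7, 52.3 and 53.7 FPKM in KO control, and 12.6, 14.1 and 14.0 FPKM in WT IRI against 65.0, 99.4 and 94.4 FPKM in WT control. Cd8a itself lay between 1.22 and 7.62 FPKM in every library. T cell markers were lower after IRI as well (8 lower and 1 higher of 15 tested, averaged over genotype), with summed levels of 1958 to 2410 FPKM in KO IRI against 2389 to 3579 in KO control and of 1047 to 1277 FPKM in WT IRI against 1912 to 2126 in WT control. Of 10 B cell markers tested 0 were higher and 5 lower, with sums of 51.1 to 76.3 FPKM in KO IRI against 137 to 316 in KO control and of 31.1 to 50.4 FPKM in WT IRI against 98.5 to 166 in WT control. Of 11 dendritic cell markers tested 0 were higher and 4 lower, with sums of 293.5 to 396 FPKM in KO IRI against 690 to 1269 in KO control and of 153 to 270.1 FPKM in WT IRI against 320.5 to 541 in WT control. Of 17 macrophage and monocyte markers 1 was higher and 4 lower. The part of these cells in the fall of Ccl5 was not tested.

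Ccl3 and Ccl4, also called MIP-1 alpha and MIP-1 beta, did not pass in any comparison. Ccl4 had 16.1, 7.57 and 4.39 FPKM in KO IRI, against 35.8, 12.4 and 14.2 FPKM in KO control. It had 5.61, 8.94 and 3.61 FPKM in WT IRI, against 22.6, 9.44 and 8.95 FPKM in WT control. In WT every IRI library lay below every control library by a narrow margin, as for 14.4% of tested genes. In KO the groups overlapped through KO IRI 1. The log2 difference averaged over genotype was -1.04 ± 0.38 (SE, adjusted p = 0.119), with -1.08 ± 0.53 in KO and -1.01 ± 0.53 in WT.

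Ccl3 had 31.7, 17.7 and 10.8 FPKM in KO IRI, against 69.6, 18.4 and 19.9 FPKM in KO control. It had 21.4, 17.5 and 16.4 FPKM in WT IRI, against 34.4, 9.37 and 4.68 FPKM in WT control. IRI and control overlapped in both genotypes, and the first library of each control group stood far above the other 2. The log2 difference was -0.66 ± 0.67 in KO and 0.60 ± 0.67 in WT (SE, n = 3 per group, adjusted p = 0.692 and 0.716). Averaged over genotype it was -0.03 ± 0.47 as deposited and 0.05 ± 0.46 rescaled, a change of sign.

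As deposited, KO control 1 held the highest value of Ccl3, Ccl4 and Ccl5 among all 12 libraries. Its summed level of 17 macrophage and monocyte markers was also the highest, at 627 FPKM, against 312.5 and 408 FPKM in the other KO controls. So were its sums of dendritic cell markers (1269 FPKM, against 690 and 710), B cell markers (316 FPKM, against 137 and 184) and CD8 T and NK cell markers (242 FPKM, against 150.3 and 167.5). The 3 WT controls had sums of 353, 191 and 204.5 FPKM, and WT control 1, with the highest of these, also had the highest Ccl3 and Ccl4 of its group and its highest dendritic cell sum (541 FPKM, against 369 and 320.5) and B cell sum (166 FPKM, against 109 and 98.5). The part of these cells in the values was not tested. KO control 1 also needed the largest factor (1.34) when libraries were rescaled by median ratios. Once rescaled, WT control 1 and WT control 3 lay above it in Ccl5, and WT control 2 in the CD8 T and NK cell sum. Its Ccl3, Ccl4 and other sums named here stayed the highest. Without KO control 1 the KO minus WT control difference was 0.66 for Ccl3, against 1.26 with it, and 0.08 for Ccl4, against 0.54 with it.

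Cxcl10, which is induced by interferon gamma and attracts Cxcr3-bearing T cells, had 4.46, 4.24 and 3.94 FPKM in KO IRI, against 6.22, 5.14 and 4.88 FPKM in KO control. It had 1.85, 0.606 and 1.98 FPKM in WT IRI, against 3.29, 3.85 and 12.0 FPKM in WT control. As deposited, every IRI library lay below every control library in both genotypes, by a narrow margin in KO and a wider one in WT. The same held for 9.15% of tested genes in KO and 14.4% in WT. Once rescaled, the KO groups overlapped through KO IRI 2 and KO control 3, and the WT groups stayed apart. The log2 difference was -0.29 ± 0.39 in KO (SE, n = 3 per group, adjusted p = 0.766) and -1.44 ± 0.39 in WT (adjusted p = 0.0716), and neither passed. Averaged over genotype it was -0.87 ± 0.27 (SE, adjusted p = 0.0793), which did not pass either. WT control 3 stood apart at 12.0 FPKM, and without it the WT difference was -0.93.

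**Figure D3:**
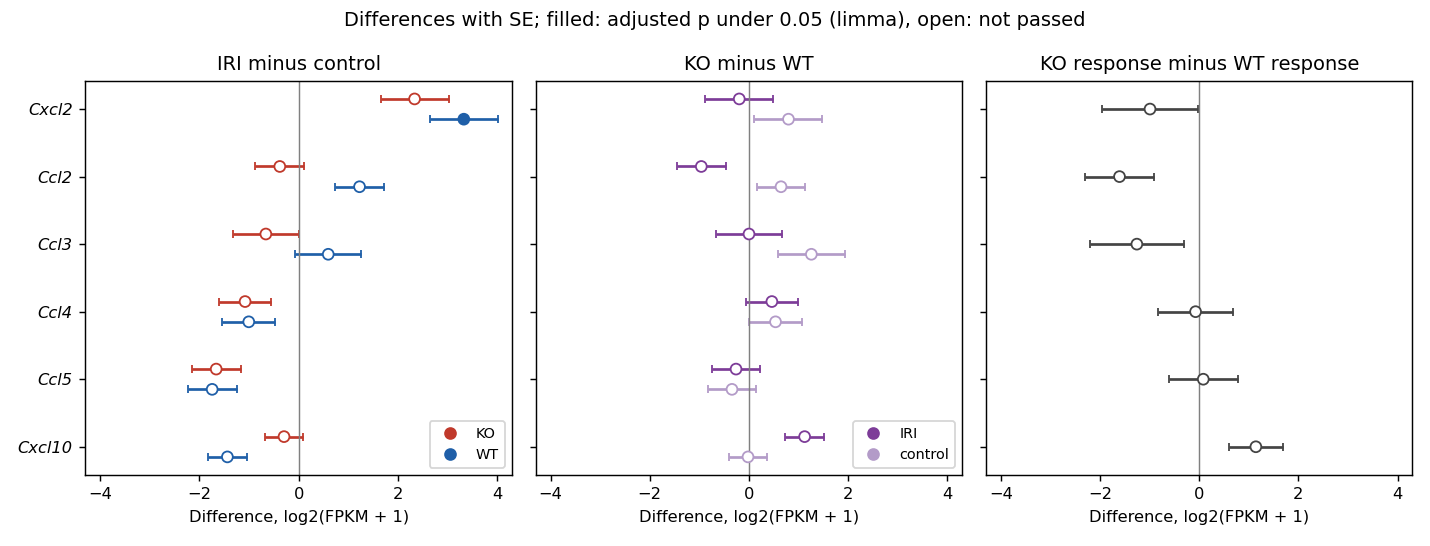
Differences of the 6 tested ligands on the log2(FPKM + 1) scale with SE: IRI minus control in KO and WT (left), KO minus WT after IRI and in controls (middle), and KO response minus WT response (right). Filled points passed an adjusted p of 0.05. The filled point is Cxcl2 in WT, at 3.33.

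Between the genotypes no ligand passed. After IRI, 0 of 6 tested ligands passed by limma (1 at an unadjusted p under 0.05), where 0.0570% of tested genes were called. In controls, 0 of 6 passed (0 at an unadjusted p under 0.05), where 0.0259% of genes were called. Averaged over condition, 0 of 6 passed (0 at an unadjusted p under 0.05), where 13.7% of genes were called as deposited and 0.550% after rescaling. In the test of the interaction, the response in KO against that in WT, 0 of 6 passed (1 at an unadjusted p under 0.05), where 0.00518% of genes were called.

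The median gene was itself higher in KO, by 0.26 after IRI and 0.30 in controls on the log2(FPKM + 1) scale, and rescaling by median ratios brought these to 0.02 and 0.01. After IRI the rescaled differences farthest from 0 were those of Ccl2, at -1.20 ± 0.50 (SE, adjusted p = 0.272), whose groups overlapped, and of Cxcl10. For Cxcl10 all 3 KO IRI libraries lay above all 3 WT IRI libraries, as for 24.9% of tested genes, and the KO mean was 2.85 times as high. The log2 difference was 1.12 ± 0.39 as deposited (SE, n = 3 per group, unadjusted p = 0.0150, adjusted p = 0.149) and 0.91 ± 0.41 rescaled (adjusted p = 0.303). The Cxcl10 response in KO minus that in WT was 1.14 ± 0.55 (SE, adjusted p = 0.9995). Ccl5 was -0.26 ± 0.49 after IRI and -0.34 ± 0.49 in controls as deposited, and -0.55 ± 0.48 and -0.68 ± 0.48 rescaled. Cxcl2 was -0.20 ± 0.69 after IRI and 0.80 ± 0.69 in controls as deposited.

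Ratios of 2 ligands in the same library do not depend on how libraries were scaled. Cxcl2 and Ccl5 were set against each other because they had been called higher and lower after IRI, so their ratio restates those calls as a description. The ratio of Cxcl2 to Ccl5 was 0.633, 1.83 and 0.267 in KO IRI and 0.0546, 0.0317 and 0.0209 in KO control. It was 0.449, 1.60 and 0.382 in WT IRI and 0.0365, 0.00941 and 0.00411 in WT control. Every IRI library lay above every control library of either genotype, and the 2 IRI groups overlapped. Ccl5 was the highest of the 38 ligand genes in 10 of the 12 libraries, and Cxcl2 was the highest in KO IRI 2 and WT IRI 2. The share of Ccl5 in the summed ligand FPKM was 22.6 ± 9.44% in KO IRI and 43.1 ± 3.77% in KO control, and 25.5 ± 11.4% in WT IRI and 55.9 ± 5.87% in WT control (SD, n = 3 each). The share of Cxcl2 was 15.4 ± 6.99% in KO IRI and 1.53 ± 0.747% in KO control, and 15.8 ± 4.97% in WT IRI and 0.866 ± 0.830% in WT control.

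The neighbours Ccl3 and Ccl4 also differed in proportion. Ccl3 over Ccl4 was 1.96 to 2.47 in KO IRI and 1.40 to 1.95 in KO control, and 1.96 to 4.55 in WT IRI and 0.523 to 1.52 in WT control. In both genotypes the IRI libraries lay above the controls, barely so in KO, where KO IRI 1 had 1.96 and KO control 1 had 1.95.

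**Figure D4:**
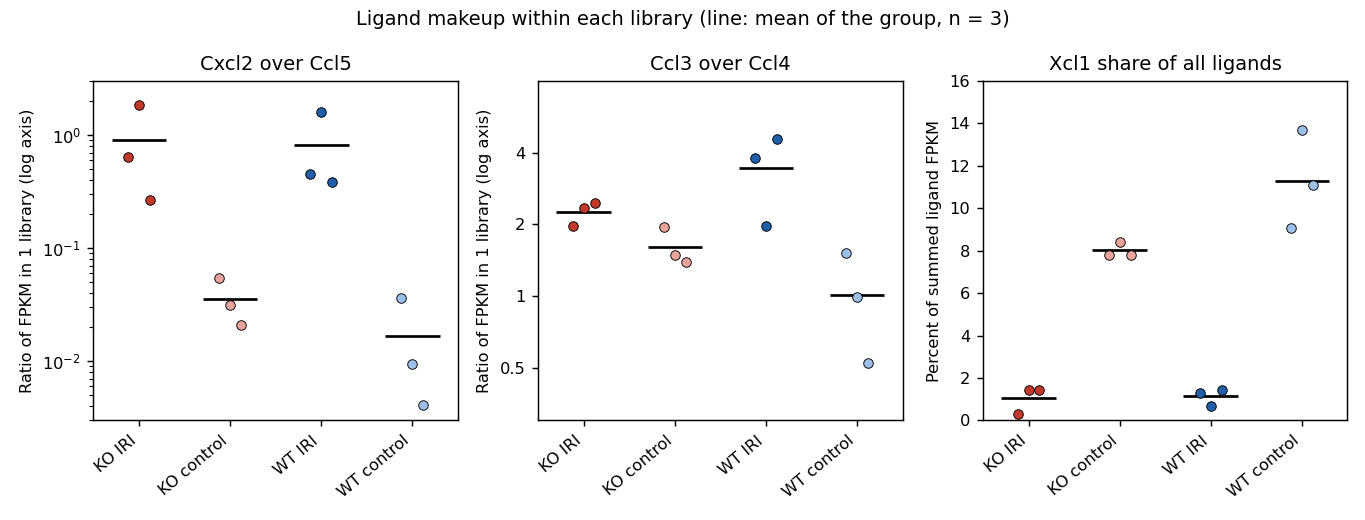
Ratio of Cxcl2 to Ccl5 (left, log axis), ratio of Ccl3 to Ccl4 (middle, log axis) and share of Xcl1 in the summed FPKM of 38 ligand genes in percent (right), per library. Points are libraries and lines are group means (n = 3). The Cxcl2 to Ccl5 ratio is 0.267 or more in every IRI library and 0.0546 or less in every control library.

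Of 31 other chemokine ligand genes, 11 were tested. In KO 0 were higher and 1 lower after IRI, where 0.327% of all tested genes were higher and 0.539% lower. In WT 0 were higher and 2 lower, where 1.19% of all tested genes were higher and 2.59% lower. Averaged over genotype 0 were higher and 3 lower, where the shares were 3.01% and 6.03%. Xcl1, the attractant of cross-presenting dendritic cells, had 0.864, 2.10 and 1.75 FPKM in KO IRI against 33.4, 17.1 and 16.7 FPKM in KO control, and 2.04, 1.42 and 2.61 FPKM in WT IRI against 26.4, 30.7 and 30.1 FPKM in WT control. It fell by a log2 of 3.15 ± 0.29 in KO (SE, n = 3 per group, limma adjusted p = 0.00192) and by 3.33 ± 0.29 in WT (adjusted p = 0.000629). Ccl1, a ligand of Ccr8, fell in WT by 1.89 ± 0.41 (adjusted p = 0.0332) and averaged over genotype by 1.92 ± 0.29 (adjusted p = 0.00306). Its means were 1.906 FPKM in KO IRI against 9.863 in KO control, and 0.551 FPKM in WT IRI against 4.555 in WT control. Ccl12, a mouse monocyte attractant related to Ccl2, had means of 0.106 FPKM in KO IRI and 2.31 FPKM in KO control. In WT they were 0.440 FPKM after IRI and 1.80 FPKM in controls. It reached the mean of 1 FPKM set for testing only through the control groups. Its fall of 1.24 ± 0.25 averaged over genotype (limma adjusted p = 0.0119) is therefore given only as a description. Ccl12 is among the 3 counted as lower above, so that count is a description too. Ccl9, a mouse myeloid chemokine, had a WT difference of 2.29 ± 0.62 (adjusted p = 0.0727) as deposited and passed after rescaling (2.38, adjusted p = 0.0453). Of the other ligands with a mean of 10 FPKM or more, Ccl6, Cxcl16 and Ccl25 passed in no comparison of IRI with control.

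The receptors of these ligands were also in the table. Of 23 chemokine receptor genes, 18 were tested; after IRI 1 was higher and 2 lower in KO (0.327% and 0.539% of all tested genes), 2 higher and 6 lower in WT (1.19% and 2.59% of all tested genes), and 3 higher and 7 lower averaged over genotype (3.01% and 6.03% of all tested genes). Cxcr3, the receptor of Cxcl10, had 37.8, 28.8 and 32.8 FPKM in KO IRI against 95.5, 61.4 and 80.5 FPKM in KO control, and 16.5, 9.18 and 14.7 FPKM in WT IRI against 59.3, 68.4 and 86.2 FPKM in WT control. Every IRI library lay below every control library of its genotype, as for 9.15% of tested genes in KO and 14.4% in WT. Averaged over genotype Cxcr3 fell by 1.78 ± 0.18 (SE, limma adjusted p = 0.000348) and Ccr2, the receptor of Ccl2, by 1.40 ± 0.19 (adjusted p = 0.00174). Cxcr6, the receptor of Cxcl16 on tissue T cells, fell by 2.07 ± 0.27 in KO (adjusted p = 0.00860) and by 2.85 ± 0.27 in WT (adjusted p = 0.00130). Cx3cr1, the fractalkine receptor, fell in KO by 2.22 ± 0.38 (adjusted p = 0.0305).

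The 3 receptor genes higher after IRI averaged over genotype were Cxcr1, Ccr1 and Ccrl2. Cxcr1, a receptor known from neutrophils, had 3.77, 4.29 and 3.22 FPKM in KO IRI against 0, 0.312 and 0.291 FPKM in KO control, and 2.95, 4.40 and 5.60 FPKM in WT IRI against 0.0563, 1.31 and 0 FPKM in WT control. It rose by 1.99 ± 0.35 in KO (SE, n = 3 per group, limma adjusted p = 0.0315) and by 1.95 ± 0.35 in WT (adjusted p = 0.0139). Its control means were 0.201 FPKM in KO and 0.455 FPKM in WT, so Cxcr1 reached the mean set for testing only through the IRI groups. Ccr1, a receptor of Ccl3 and Ccl5 on myeloid cells, rose in WT by 2.23 ± 0.40 (adjusted p = 0.0149), with 1.28 ± 0.40 in KO (adjusted p = 0.184). Its control means were low as well, at 1.12 FPKM in KO and 0.447 FPKM in WT. Cxcr2, the receptor of Cxcl1 and Cxcl2, was between 0.230 and 2.09 FPKM in every library and did not pass (0.33 ± 0.21 averaged over genotype, adjusted p = 0.383). Ccr1 and Cxcr2 were named after their values were seen, as receptors of the 7 ligands. Between genotypes, averaged over condition, Ccr4, Ccr6, Ccr7 and Cxcr3 were higher in KO as deposited, where 11.9% of all tested genes were higher. The median gene was itself higher in KO by 0.29 in that comparison. Of these receptors only Ccr6, a receptor of Th17 cells, passed after rescaling (1.79, adjusted p = 0.0479), where 0.378% of all tested genes were higher.

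**Figure D5:**
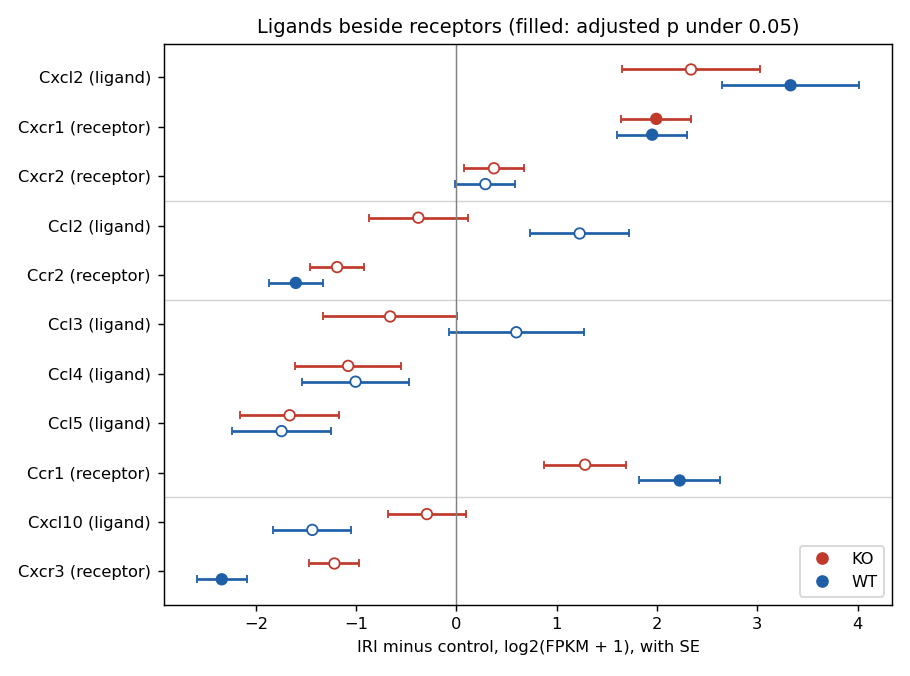
IRI minus control differences with SE on the log2(FPKM + 1) scale for 6 ligands and chemokine receptors, in KO and WT (n = 3 per group). Filled points passed an adjusted p of 0.05. Ccr2 and Cxcr3 lie left of 0, while Cxcr1 and Ccr1 lie right of it.

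Genes of pathways known to control chemokine transcription were counted in 3 lists. The lists also hold the chemokine ligand genes Xcl1, Cxcl9 and Cxcl11, so the fall of Xcl1 given above is counted here again. Of 20 NF-kB and inflammatory genes, 18 were tested, and averaged over genotype 5 were higher and 1 lower after IRI, with 9 higher and 1 lower once libraries were rescaled. Nfkbiz, which encodes the nuclear NF-kB cofactor I-kappa-B-zeta, rose by 0.99 ± 0.11 (SE, limma adjusted p = 0.000641) and Bcl3, another nuclear I-kappa-B protein, by 1.63 ± 0.20 (adjusted p = 0.00104), while Tnf, the cytokine that activates NF-kB, fell by 1.84 ± 0.16 (adjusted p = 0.000194). Of 24 interferon gamma pathway genes, 23 were tested, and 2 were higher, the signalling genes Ifngr2 and Jak2, and 10 lower, with 4 higher and 10 lower once rescaled. Irf8, a transcription factor of the interferon pathway, fell by 1.31 ± 0.19 (adjusted p = 0.00211) and Psmb9, an immunoproteasome subunit, by 1.05 ± 0.16 (adjusted p = 0.00344). Of 18 genes induced through the T cell receptor, 18 were tested, and 0 were higher and 8 lower. Among them Tbx21, the transcription factor of Th1 cells, fell by 1.94 ± 0.13 (adjusted p = 7.37e-05). For all tested genes the shares were 3.01% higher and 6.03% lower as deposited, and 6.35% higher and 7.33% lower once rescaled.

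The genes most like each ligand were ranked by Pearson's r of log2(FPKM + 1) over the 12 libraries, as a description. The points share library depth and group, so a gene that follows the groups ranks high. For Cxcl2 the highest were Ptgs2 (r = 0.973), which encodes cyclooxygenase-2, Tgfbi (0.961), Khdc3 (0.950), Dstyk (0.941) and Emilin2 (0.937). For Ccl5 they included Ide (0.928), Podnl1 (0.925), Mical2 (0.918) and Ctsw (0.915), which encodes the cathepsin of cytotoxic cells. For Ccl3 they were led by Zmynd15 (0.932) and Plek (0.925), for Ccl4 by Fcrl1 (0.939) and Myo1e (0.936), for Cxcl10 by Mrpl17 (0.928), and for Ccl2 by Kcnmb1 (0.869). No ligand was among the 5 genes most like another.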

How the data were processed

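Total RNA of kidney CD4 T cells sorted by flow cytometry after a Percoll gradient entered a stranded total RNA kit at 1 ng, and paired reads of 36 bases were made, per the labels' protocols. The deposited table holds 1 FPKM value per gene and library, per the file headers. Per the submitters' processing notes, the build was GRCm38 and the tools Partek 7.0, Cufflinks 2.2.1, TopHat2 2.1.0 and bcl2fastq 2.17.1.14, with no roles given. Any scaling by the authors between libraries is not given in the sources used here. FPKM holds no counts, so the depth is unknown, no counting error can be given, and a value of 0 may be a failed estimate. Of 52632 gene IDs, 52399 matched GENCODE M21, which gave symbols, types and GRCm38 coordinates.

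Values were used as deposited. The 19288 genes whose mean reached 1 FPKM were tested on log2(FPKM + 1) by limma 3.58.1 under R 4.3.3, using lmFit and then eBayes with trend, with all 12 libraries in 1 fit of 4 group means (8 residual degrees of freedom) and Benjamini-Hochberg adjustment over all tested genes within each of 7 comparisons. The rescaled values divide each library by its median ratio to the geometric mean over 16018 genes. The scripts were tested on simulated data. The ligands and all lists were chosen with earlier results of these data known. Of other ligands and receptors at most 4 per comparison, and of each pathway list at most 3, were named by the smallest p among those past the threshold. A few genes that this rule or the ranking by likeness selects are not reported here. Alternatives were the pseudocount, filter, scaling, replicate block, library weights, the 2 groups alone and leaving libraries out.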

Additional observations from a re-analysis of the deposited data

How the results depend on the processing

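The rise of Cxcl2 averaged over genotype passed under every alternative run and the fall of Ccl5 under all but 1; Cxcl2 in WT passed in 15 of 23. No other ligand passed as reported. The depth each library reached is unknown, which leaves the counting error of the low ligands (Cxcl1, Ccl2, Cxcl10) unknown too. With 3 libraries per group single libraries moved many values. In each item below the cause was not tested. No ligand passed the KO control minus WT control, KO IRI minus WT IRI or interaction tests under any alternative.

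The number of genes past the threshold moved most. With a pseudocount of 0.1 it was 10 in KO control minus WT control; with a pseudocount of 5 it was 3 there, 0 in KO IRI minus WT IRI and 0 for the interaction. Without the filter it was 405 in WT IRI minus control, 78 in KO IRI minus control, 3 for the interaction, 1081 for IRI averaged and 211 for KO averaged, and 0 ligands passed in WT. With a mean of at least 5 FPKM it was 81 in KO IRI minus WT IRI. Rescaled by median ratios it was 1531 in WT IRI, 398 in KO IRI, 2639 for IRI averaged and 106 for KO averaged. With quantile normalization these were 1767, 327, 2644 and 54, and 2 ligands passed in WT, Cxcl10 being the second (adjusted p = 0.0441). With a common sum over protein-coding genes it was 1105 in WT IRI, 334 in KO IRI, 6 in KO IRI minus WT IRI and 279 for KO averaged. With only the 2 groups compared it was 403 in WT, with 0 ligands, and 8 in KO. With library weights it was 2242 in WT, 2764 in KO, 6356 in controls, 817 in KO IRI minus WT IRI, 4603 for IRI averaged and 7335 for KO averaged. The ligands past the threshold with weights were 3 in WT, 2 in KO and 1 for KO averaged, Cxcl10 (0.68, adjusted p = 0.0257). Cxcl10 also passed for IRI averaged with weights (-0.65, adjusted p = 0.0423).

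Chosen after seeing the data, KO control 1, WT IRI 3 and WT control 3 were left out together. Genes past the threshold were then 224 in WT, 40 in KO, 31 in controls, 19 in KO IRI minus WT IRI, 28 for the interaction, 1068 for IRI averaged and 54 for KO averaged, with 0 ligands in WT and 1 for IRI averaged.

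Leaving out each library in turn gave 255 to 917 genes in WT, 44 to 848 in KO, 4 to 1961 in controls, 0 to 552 in KO IRI minus WT IRI, 2 to 12 for the interaction, 1044 to 2615 for IRI averaged and 34 to 5898 for KO averaged. The highest counts came without KO control 2, except for the interaction, where it was without WT control 3. It gave 0 to 1 ligands in WT.

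The replicate block is reported here only, because the replicate numbers were not shown to pair the libraries. Of 18 pairs with the same number, correlations of deviations ran from -0.04 to 0.20 and 1 was over 0.1. Correlations over all genes cannot settle whether libraries were paired. With the block, 2 ligands passed in WT (Ccl5 added, adjusted p = 0.0422), Ccl4 passed averaged over genotype (-1.04, adjusted p = 0.0391), and genes past the threshold were 3 in KO IRI minus WT IRI and 1687 for KO averaged.

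Changes of sign were found in differences that did not pass. For Ccl3 in KO IRI minus WT IRI the value was -0.0049 with a pseudocount of 0.1, -0.28 rescaled, -0.37 with quantile normalization, -0.20 with a common sum, -0.084 with weights and -0.075 without the 3 libraries. For Ccl3 in IRI averaged it was 0.050, 0.071, 0.030 and 0.015 when rescaled, with quantile normalization, with weights and without the 3 libraries. For the Ccl4 interaction it was 0.088 with quantile normalization, 0.10 with weights and 0.33 without the 3 libraries. Cxcl10 in controls was 0.0077 with a pseudocount of 0.1, 0.24 with weights and 0.40 without the 3 libraries. Weights also turned Ccl2 in KO (0.11), Cxcl2 in KO IRI minus WT IRI (0.10) and the Ccl5 interaction (-0.078). Leaving out the 3 libraries also turned Ccl2 in KO (0.024), Ccl4 (-0.14) and Cxcl2 (-0.17) in controls, Ccl5 in KO IRI minus WT IRI (0.048), and Ccl3 (-0.0018) and Cxcl2 (-0.22) for KO averaged. Without single libraries the sign changed for Ccl3 (-0.38 to 0.36), Ccl5 (-0.75 to 0.24) and Cxcl2 (-0.63 to 0.43) in KO IRI minus WT IRI, for the interaction of Ccl4 (-0.52 to 0.38) and Ccl5 (-0.41 to 0.58), for Ccl3 in IRI averaged (-0.32 to 0.34), Ccl2 in KO (-0.83 to 0.024), Cxcl10 in controls (-0.32 to 0.49) and Ccl2 for KO averaged (-0.36 to 0.069).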
